A study of Mus musculus with 25 samples.

Results

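Of the 25 pituitary libraries of the series, 9 compare tumors in which RB had been allowed to return with tumors of the same total age of treatment in which it had stayed depleted. The members were chosen by treatment alone. The rescue group, 12w-res, held 5 mice (3 females and 2 males) that spent 6 weeks on doxycycline (dox) and then 6 weeks off it. The time-matched group, 12w+dox, held 4 mice (2 females and 2 males) that stayed on dox for 12 weeks. According to the study's methods, the dox water held sucrose, which was left out of the water during RB re-introduction. Effects of dox, of sucrose and of the shRNA switch therefore cannot be told apart between these groups. All 9 were sh*Rb* mice, which carry a reverse tetracycline transactivator at *Rosa26*, a broadly active promoter, and a single shRNA against *Rb* with a linked GFP reporter at the *Col1a1* locus, so that dox switches the shRNA on in many tissues. The line came from 1 targeted embryonic stem cell clone, and no pituitary of an untreated or transgene-free mouse was analysed here. Dosing began in young adults. Pituitaries were harvested and snap frozen without sorting of cells, so each library can hold tumor, normal gland, vessels and connective tissue. A further 3 females sampled after 6 weeks on dox (6w+dox), the point at which the rescue group lost dox, shared the library preparation and entered the fit. Their values are given beside the others where they help to place a level.

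RB, the product of *Rb1*, binds the E2F transcription factors and holds down the genes needed for entry into S phase. When cyclin-dependent kinases (CDKs) phosphorylate RB, or when RB is lost, E2F is freed and those genes are transcribed. Genes of G2 and mitosis are controlled by a related assembly, in which the RB relatives p107 and p130 join the MuvB core to form DREAM in resting cells, and the MuvB core pairs with B-MYB and FOXM1 in dividing cells. The melanotrophs of the pituitary intermediate lobe, which make the prohormone *Pomc*, are the cells from which tumors arise when mice lack RB. A melanotroph processes POMC into peptides with the convertases encoded by *Pcsk1* and *Pcsk2*.

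The shRNA of these mice, shRb5, was designed against 21 bases of the *Rb1* transcript. This target is shown because the shRNA against it was switched on by dox in 12w+dox and no longer in 12w-res:
shRb5 target: gaggagtttgattccattata
The target matched 1 GENCODE transcript of *Rb1* (Rb1-201, 4656 bases, 27 exons), in which it starts at base 2399 and lies with all 21 bases in coding sequence of exon 22. In GRCm38, the build that mm10 names, that is chr14:73206076-73206096 on the minus strand, within the RefSeq gene *Rb1* at chr14:73192858-73325951. *Rb1* measured 3.45, 2.42, 2.93 and 4.05 FPM in the 12w+dox mice and 16.1, 17.01, 20.3, 19.2 and 18.2 FPM in the 12w-res mice. FPM is the authors' read unit, scaled by DESeq2 size factors. Every rescued mouse was above every 12w+dox mouse. The means were 3.21 ± 0.700 (SD, n = 4) and 18.2 ± 1.66 (SD, n = 5), a ratio of 5.66 (exact permutation test, two-sided, p = 0.0159; 5 mice against 4 cannot give a smaller one). At 6w+dox *Rb1* had measured 1.86, 2.54 and 5.09 FPM, so that the rescued level also lay above each mouse sampled at the time of dox removal. GFP was not analysed here.

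**Figure D1:**
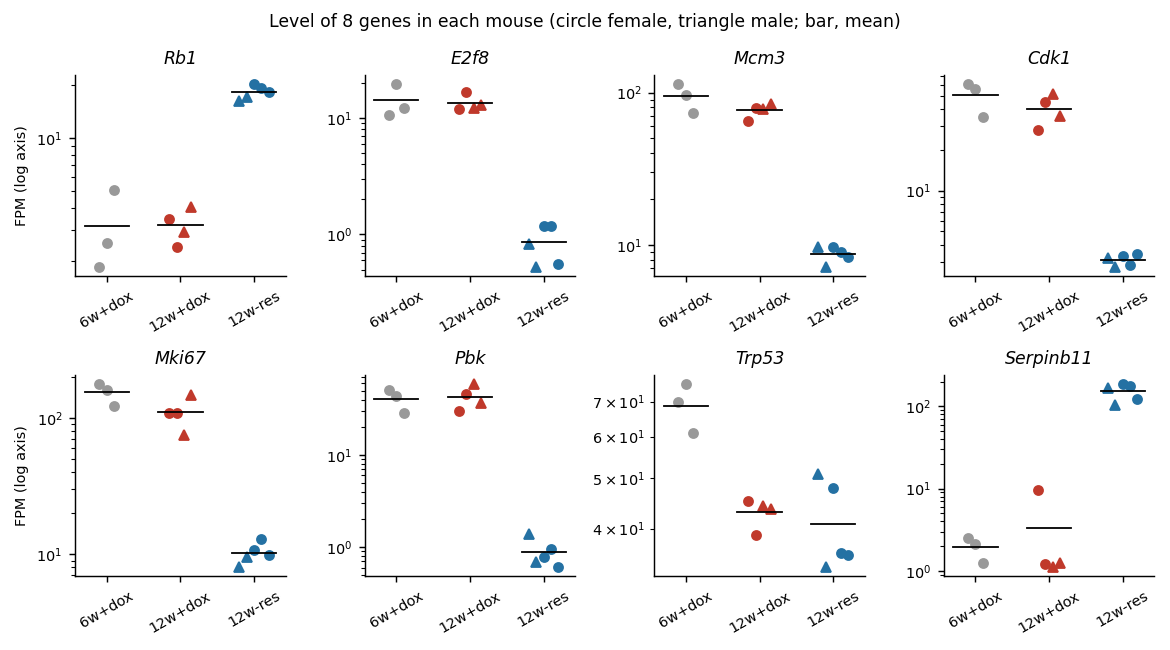
FPM (log axis) of 8 genes in each mouse of 6w+dox (n = 3), 12w+dox (n = 4) and 12w-res (n = 5); each point is a mouse (circles female, triangles male) and the bar is the group mean. *Rb1* and *Serpinb11* sit higher in all 5 rescued mice, *Mki67*, *Mcm3*, *Cdk1*, *E2f8* and *Pbk* sit lower in all 5, and *Trp53* overlaps.

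Reads on genes numbered 22695279 to 28968476 per 12w+dox mouse and 21830031 to 26505869 per 12w-res mouse. The median gene had 488 to 621 reads in the 12w+dox mice and 286 to 377 in the 12w-res mice. A typical gene thus rested on fewer reads in the rescued mice, which matters most for low genes. The limma test ran on log2(FPM + 0.5), and genes with a Benjamini-Hochberg adjusted p below 0.05 that also changed by over 1 on the log2 scale were called higher or lower. Of 15315 genes tested, 955 were called higher in 12w-res (6.24%) and 772 lower (5.04%), together 11.3%. These shares are the background for each count of called list members below. Over all genes the groups had no overlapping mice in 34.5%, which is the background for each statement below that groups did not overlap. At an adjusted p under 0.05 with no minimum change, 19.4% of genes were higher and 18.3% lower. The largest changes were mostly decreases, since 77 genes fell by more than 3 on the log2 scale and 22 rose by as much. The median gene stood at -0.0040. When totals of recovered reads replaced the authors' size factors that median moved to -0.61, and 243 genes were then called higher and 3364 lower. Totals that left out *Pomc* gave a median of -0.179, with 655 genes higher and 1130 lower, and the cause of the shift was not tested. Changes are therefore reported relative to the median gene.

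One 12w+dox mouse, replicate 1 (female), stood apart from the other 3. In it 4.20% of genes lay more than 1 on the log2 scale from the median of the rest of its group, beside 1.53% to 2.27% in those 3 mice. Its *Prl* was 4940.4 FPM where they had 214 to 332. Without it 1216 genes were called higher and 874 lower. Values without it are given below for genes whose call or size rests on it. In 12w-res the corresponding shares were 0.966% to 1.56%, and 3.60% in replicate 1 (male). The expression of *Xist*, the RNA that silences 1 X chromosome in females, matched the labelled sex in all 12 mice (85.2 to 2330.4 FPM in 8 females, at most 0.195 in 4 males).

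**Figure D2:**
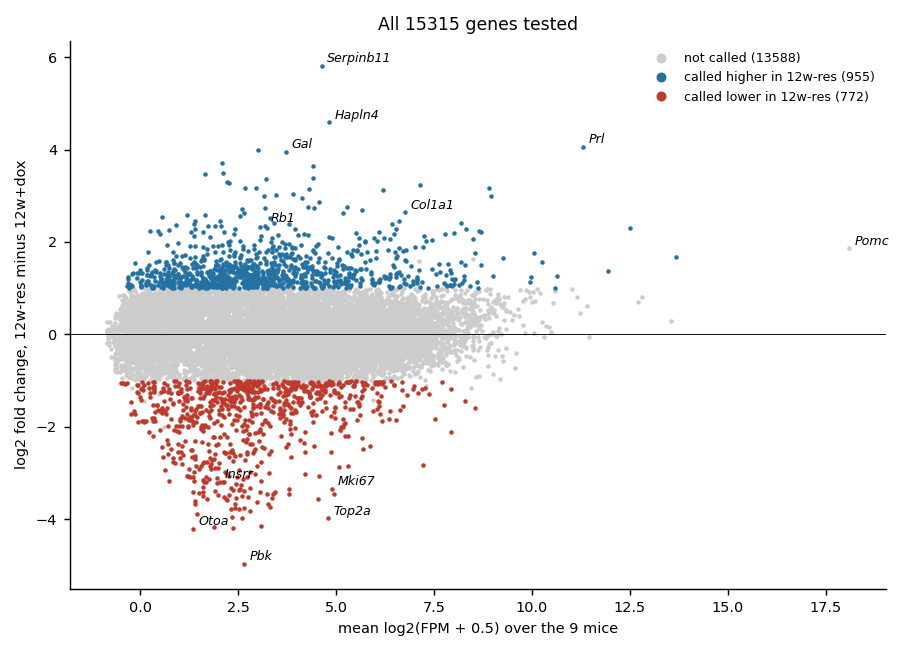
Log2 fold change of each of the 15315 genes (12w-res minus 12w+dox, on log2(FPM + 0.5)) against its mean log2(FPM + 0.5) over the 9 mice; genes called higher (955) and lower (772) are coloured and 12 genes are named. *Serpinb11* has the largest increase (5.82) and *Pbk* the largest decrease (-4.96), and more genes lie below -3 (77) than above 3 (22).

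Of 20 genes of the RB family, the E2F and DP factors and the MuvB assembly, 7 fell and 1, *Rb1* itself, rose, with a median log2 fold change of -0.50. The repressor E2Fs *E2f7* and *E2f8*, which E2F activity itself induces, fell furthest. *E2f8* measured 12.00, 16.8, 12.2 and 12.96 FPM at 12w+dox and 0.832, 0.528, 1.18, 1.18 and 0.553 in 12w-res (a 15.8-fold lower mean, log2 fold change -3.39, standard error 0.22, adjusted p = 7.67e-08), and at 6w+dox 10.5, 19.7 and 12.3. *E2f7* went from 10.9 ± 2.23 to 0.581 ± 0.258 FPM (log2 fold change -3.41). Neither gene overlapped between the groups. *E2f1*, the activator E2F most often linked to S phase entry, fell by 4.40-fold (log2 fold change -2.11, standard error 0.17, adjusted p = 6.73e-07), and so did *Foxm1* (log2 fold change -2.77), *Mybl2*, which encodes B-MYB (-1.80), and *Lin9* of the MuvB core (-1.43). Among the relatives of *Rb1*, *Rbl1* (p107) fell (22.6, 20.9, 28.1 and 22.6 against 7.33, 7.50, 6.96, 6.20 and 8.07 FPM, log2 fold change -1.64), whereas *Rbl2* (p130) had 33.4 to 42.8 against 30.2 to 38.2 FPM and overlapped (log2 fold change -0.097 with an adjusted p of 0.598). The repressive *E2f4* also overlapped (log2 fold change -0.061 with an adjusted p of 0.711).

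The G1/S cyclins and their kinases divided by class. Of 13 genes, 6 fell and 1 rose. The E-type cyclins, which drive CDK2 at the start of S phase, fell. *Ccne2* measured 6.66, 8.60, 15.6 and 9.16 FPM at 12w+dox and 0.676, 2.64, 2.09, 1.83 and 2.15 in 12w-res (log2 fold change -2.15, standard error 0.33, adjusted p = 0.000191), and *Ccne1* had a log2 fold change of -1.56. *Cdk2* (-2.44) and *Ccna2*, whose cyclin A acts in S phase and G2 (-3.45), fell as well. The D-type cyclins, which act upstream of RB with CDK4 and CDK6, did not follow. *Ccnd2* rose (23.1, 6.32, 6.01 and 15.7 against 57.8, 27.4, 26.4, 24.0 and 28.5 FPM, log2 fold change 1.46, standard error 0.37, adjusted p = 0.00705). *Ccnd1* had no overlap between the groups (10.8 to 21.2 against 25.0 to 38.7 FPM) and a log2 fold change of 0.99, just under the minimum for a call (adjusted p = 0.000701), which it passed without 12w+dox replicate 1 (1.15), and *Ccnd3* stood at 0.023 with an adjusted p of 0.907. At 6w+dox *Ccnd1* (39.0 to 46.2 FPM) was above all 5 rescued mice and *Ccnd2* (39.0 to 79.8 FPM) above 4 of them. Of the 7 CDK inhibitor genes, 3 fell and none rose. *Cdkn2c* (p18) went from 118 ± 22.8 to 36.8 ± 4.66 FPM (log2 fold change -1.65), *Cdkn2a*, the locus of p16 and p19ARF, from 7.75 to 12.8 to 2.32 to 4.12 FPM over the mice (-1.47) and *Cdkn1a* (p21) from 32.4 ± 7.56 to 13.2 ± 2.04 (-1.24).

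Genes that copy DNA fell almost as a class. Of 44 replication genes, 37 fell and none rose, all 44 were below 0, and in 43 every rescued mouse was below every 12w+dox mouse. Their median log2 fold change was -2.04. *Mcm3*, a subunit of the helicase that unwinds replication origins, measured 65.4, 79.3, 78.2 and 84.2 FPM at 12w+dox and 9.62, 7.19, 9.74, 8.97 and 8.29 in 12w-res, a mean lower by 8.76-fold (log2 fold change -3.06, standard error 0.14, adjusted p = 5.63e-09). *Pcna*, the sliding clamp of the polymerases, measured 106, 139.8, 168 and 120.4 and 24.0, 24.0, 24.0, 23.03 and 21.8 FPM (log2 fold change -2.47, standard error 0.14, adjusted p = 1.86e-08). The rescued mice spanned a narrow range, well below the lowest 12w+dox mouse. The largest decreases of the class were those of *Clspn*, a mediator of the replication checkpoint (log2 fold change -3.77), *Chaf1b* of the histone chaperone CAF-1 (-3.49), and *Pole*, the leading strand polymerase (-3.48). Enzymes that supply nucleotides fell in 10 of 17 cases (median -1.05), led by *Rrm2*, the regulated subunit of ribonucleotide reductase (18.04, 38.6, 35.9 and 25.9 against 3.33, 2.06, 2.37, 2.89 and 2.93 FPM, log2 fold change -3.18). *Tk1* (-2.28), *Tyms* (-1.77) and *Rrm1* (-1.45) also fell. Genes of homologous recombination, the Fanconi pathway and the replication checkpoint fell in 19 of 28 cases (median -1.58), among them *Brca1* (-3.20), *Neil3* (-3.67) and *Exo1* (-3.09). *Rad51c* did not overlap between the groups (11.7 to 14.7 against 5.18 to 7.01 FPM) and had a log2 fold change of -0.94 (adjusted p = 0.000111), under the minimum for a call.

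Mitotic genes had the lowest median of the 40 lists. Of 26 mitotic cyclins, kinases and proliferation markers, 25 fell (median -3.09) and in all 26 the groups did not overlap. *Mki67*, the gene of the proliferation marker Ki67, measured 109, 108, 75.2 and 148 FPM at 12w+dox and 8.06, 9.62, 10.7, 12.9 and 9.95 in 12w-res, while the 6w+dox mice had 177, 161 and 122. The rescued mean was 10.7-fold below that of 12w+dox (log2 fold change -3.34, standard error 0.18, adjusted p = 1.36e-08). *Cdk1*, the kinase of mitotic entry, measured 27.8, 44.7, 51.8 and 35.5 against 3.17, 2.75, 3.28, 2.83 and 3.43 FPM (log2 fold change -3.46, standard error 0.20, adjusted p = 2e-08). *Pbk*, a mitotic protein kinase, had the largest decrease of all genes whose groups did not overlap (30.4, 45.9, 59.0 and 37.0 against 1.40, 0.687, 0.774, 0.945 and 0.608 FPM, a 48.8-fold lower mean, log2 fold change -4.96, standard error 0.23, adjusted p = 6.51e-09). *Top2a*, the topoisomerase that untangles sister chromatids, followed within this group (-3.98), with *Nek2* (-3.95) and *Bub1b* (-3.56). The member that was not called, *Cdc25b*, stood at -0.91 (adjusted p = 0.000144) and was called without 12w+dox replicate 1 (-1.06). Centromere and kinetochore genes fell in 24 of 28 cases (median -2.52), with *Spc25* at -4.20, *Kntc1* at -4.18, *Cenpf* at -4.16 and *Cenpa*, the centromeric histone, at -3.58. Mitotic kinesins and cytokinesis genes fell in 17 of 19 (median -2.85), with *Kif14* (-3.89), *Ect2* (-3.82) and *Kif11* (-3.63) among them. Genes of chromatin assembly, Polycomb and DNA methylation fell in 15 of 21 cases (median -1.502). *Uhrf1*, which guides maintenance methylation to new DNA, had a log2 fold change of -3.67 and its partner *Dnmt1* -1.27, while *Ezh2*, the Polycomb methyltransferase, had -2.52 and its near relative *Ezh1* -0.51 with an adjusted p of 0.1.

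**Figure D3:**
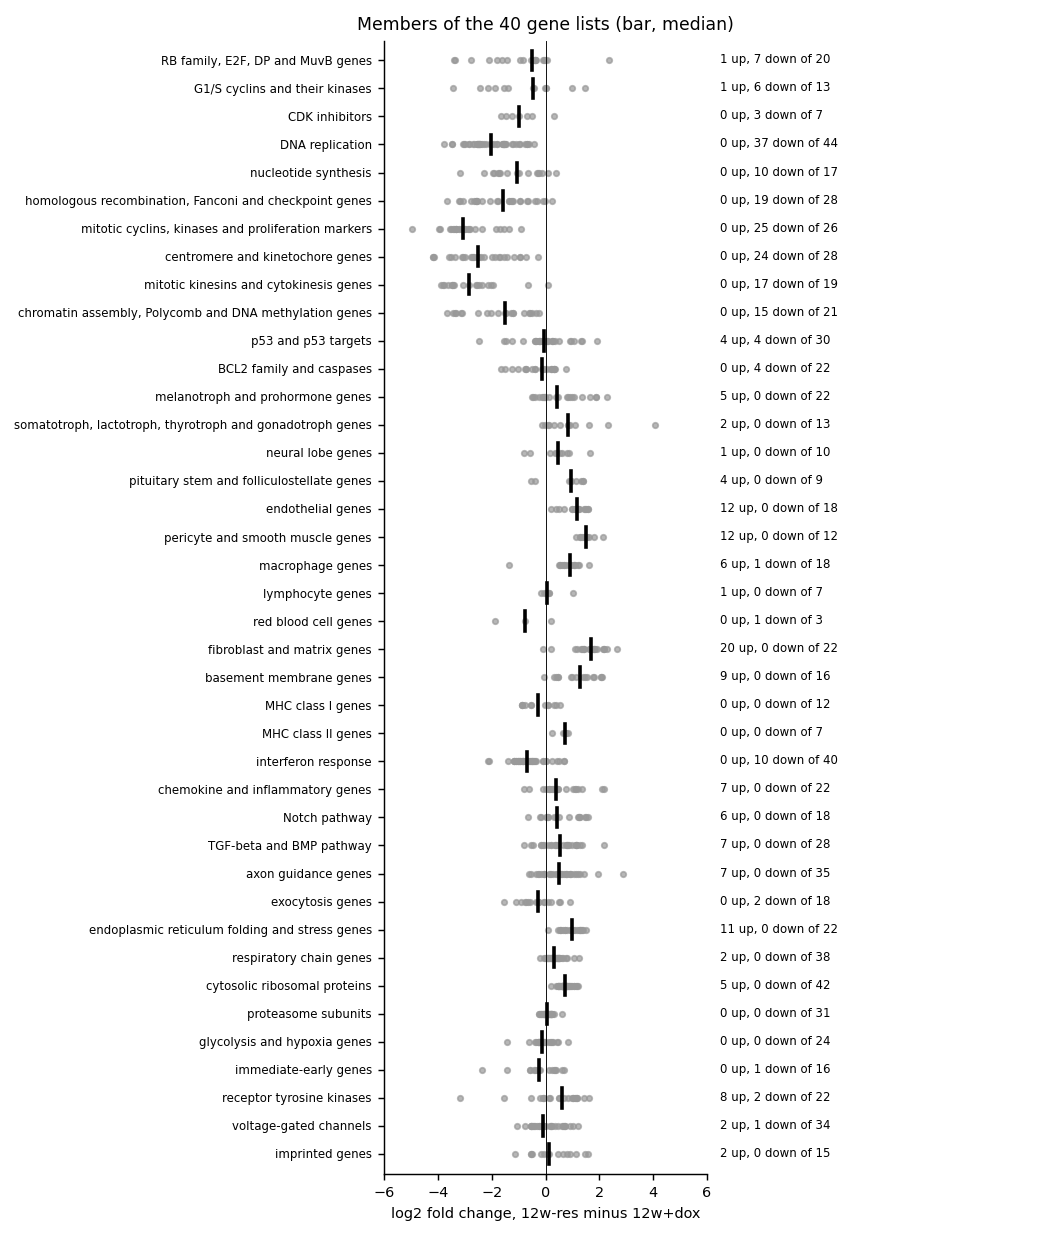
Log2 fold change (12w-res minus 12w+dox) of every tested member of the 40 gene lists; each grey point is a gene, the black bar is the list's median, and the counts at the right are members called higher and lower. The replication and mitosis lists lie almost wholly to the left of 0, and the pericyte, fibroblast and basement membrane lists to the right.

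The promoters of these genes were read from RefSeq (GRCm38.p6) as windows of 300 bases, from 250 before to 50 after each start, for E2F motifs (TTTCCCGC, TTTCGCGC, TTTGCCGC and TTTGGCGC) and for the CHR motif through which MuvB binds (TTTGAA and TTCGAA), on both strands. TTCGAA reads the same on both strands and was counted as 1 match, and neighbouring motifs were allowed to share letters. Windows were given for 12055 of the 15315 genes. An E2F motif stood in 11.3% of 719 windows of genes called lower and in 1.63% of 857 windows of genes called higher, beside 3.73% of all 15369 windows. A CHR motif stood in 23.9%, 13.5% and 13.7% of these windows. By class, replication genes had an E2F motif in 35.9% of 39 windows and a CHR motif in 23.1%, while mitotic kinesin and cytokinesis genes had an E2F motif in 2 of 20 windows and a CHR motif in 85.0% of them, and mitotic cyclins and kinases 4.76% and 66.7% of 21. A CHR motif was also frequent in 2 lists outside the cell cycle. Fibroblast and matrix genes, most of which rose, held an E2F motif in 0 of 17 windows and a CHR motif in 29.4%, and interferon response genes held them in 3.03% and 27.3% of 33. A match says only that the letters are there. Promoters of 4 genes described above are shown, as 1 of replication, 1 with both motifs and 2 of mitosis, in the sense direction of the gene with motif letters in capitals:
Mcm3, chr1:20820263-20820562, minus strand: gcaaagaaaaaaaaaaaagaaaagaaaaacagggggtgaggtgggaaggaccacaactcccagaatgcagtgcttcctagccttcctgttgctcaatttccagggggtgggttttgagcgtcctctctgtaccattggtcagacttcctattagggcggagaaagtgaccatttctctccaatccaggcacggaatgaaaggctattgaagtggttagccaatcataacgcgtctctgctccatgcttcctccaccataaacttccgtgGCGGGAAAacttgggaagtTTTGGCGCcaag
Cdk1, chr10:69352863-69353162, minus strand: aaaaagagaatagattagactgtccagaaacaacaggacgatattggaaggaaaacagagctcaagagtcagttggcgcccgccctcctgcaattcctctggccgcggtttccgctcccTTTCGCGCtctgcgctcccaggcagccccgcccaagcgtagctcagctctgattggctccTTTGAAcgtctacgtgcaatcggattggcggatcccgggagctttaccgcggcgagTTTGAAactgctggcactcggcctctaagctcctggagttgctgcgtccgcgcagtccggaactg
Mki67, chr7:135716330-135716629, minus strand: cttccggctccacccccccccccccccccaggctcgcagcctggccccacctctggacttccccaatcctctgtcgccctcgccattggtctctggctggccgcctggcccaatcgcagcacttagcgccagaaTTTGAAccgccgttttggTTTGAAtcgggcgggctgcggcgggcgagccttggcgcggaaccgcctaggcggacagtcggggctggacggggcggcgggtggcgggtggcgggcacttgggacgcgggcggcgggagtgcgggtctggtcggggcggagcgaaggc
Kif11, chr19:37376132-37376431, plus strand: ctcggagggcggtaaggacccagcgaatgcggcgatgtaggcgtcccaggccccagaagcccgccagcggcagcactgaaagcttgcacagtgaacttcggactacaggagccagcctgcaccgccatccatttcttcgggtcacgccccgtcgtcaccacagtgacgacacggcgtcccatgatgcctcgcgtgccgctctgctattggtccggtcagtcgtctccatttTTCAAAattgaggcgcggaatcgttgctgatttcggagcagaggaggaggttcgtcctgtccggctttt
The window of *Mcm3* holds 2 E2F motifs and no CHR, that of *Cdk1* holds 1 E2F motif and 2 CHR motifs, that of *Mki67* holds 2 CHR motifs and that of *Kif11* holds 1.

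**Figure D4:**
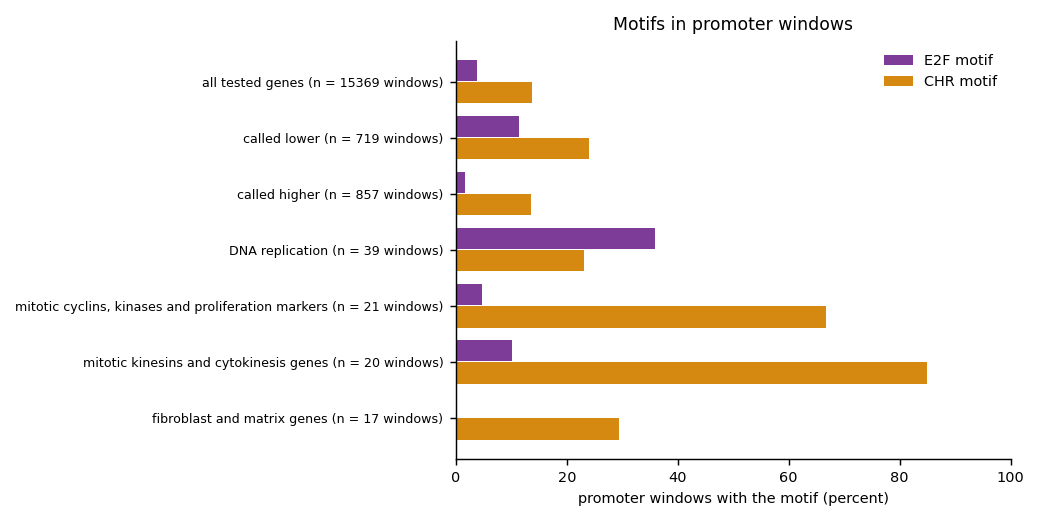
Share of RefSeq promoter windows (percent, bars from 0) with at least 1 E2F motif or at least 1 CHR motif, for all tested genes, genes called lower, genes called higher and 4 gene lists. E2F motifs are most frequent in the replication list (35.9%) and CHR motifs in the kinesin and cytokinesis list (85.0%).

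A few of the largest decreases were not cell cycle genes. *Otoa*, which encodes otoancorin of the inner ear, measured 4.92, 16.4, 17.5 and 15.8 FPM at 12w+dox and 0.468, 0.211, 0.137, 0 and 0.221 in 12w-res (log2 fold change -4.21, standard error 0.34, adjusted p = 6.18e-07). *Insrr*, the insulin receptor-related kinase, measured 3.00, 16.9, 23.7 and 24.4 and 0.988, 2.01, 0.910, 0.708 and 0.774 FPM (log2 fold change -3.19, standard error 0.48, adjusted p = 0.000196), with 12w+dox replicate 1 low in both genes. Without that mouse the log2 fold changes were -4.62 for *Otoa* and -3.85 for *Insrr*. At 6w+dox, *Otoa* stood at 7.20 to 15.2 FPM and *Insrr* at 0.757 to 2.28, so that *Insrr* was low both before and after the rescue period and *Otoa* was not. The complexin *Cplx2*, which clamps vesicle fusion, fell from 389 ± 27.0 to 138 ± 39.9 FPM (log2 fold change -1.53), as did *Cadps2* (-1.12), while the other 16 of 18 exocytosis genes were not called (median of the list -0.30). The share of that list called was near the 11.3% of all genes.

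The p53 targets did not move in 1 direction. Of 30 genes, 4 rose and 4 fell (median -0.067). *Trp53* itself measured 45.1, 38.9, 44.1 and 43.7 FPM at 12w+dox and 51.0, 33.8, 47.8, 35.9 and 35.6 in 12w-res and overlapped (log2 fold change -0.091 with an adjusted p of 0.616). *Pidd1*, a scaffold that activates caspase-2, fell furthest (9.42, 14.6, 15.3 and 12.3 against 0.728, 2.22, 1.64, 2.66 and 2.65 FPM, log2 fold change -2.49, standard error 0.30, adjusted p = 2.66e-05), followed by *Eda2r* (-1.54), *Ddb2* (-1.47) and *Cdkn1a*. *Sfn*, which encodes 14-3-3 sigma, rose (0.279, 2.65, 2.22 and 1.45 against 5.72, 6.39, 5.83, 8.62 and 7.13 FPM, log2 fold change 1.91), with *Gdf15* (1.36), *Sesn2* (1.31) and *Ccng1* (1.04). 12w-res replicate 1 was the highest mouse for *Gdf15* and *Sesn2*, at 19.6 and 65.9 FPM beside at most 8.15 and 36.6 in the other 4. Of 22 genes of the BCL2 family and the caspases, 4 fell and none rose (median -0.12), among them the pore former *Bok* (-1.66) and the killer *Bcl2l11*, known as BIM (-1.02).

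The largest increases without overlap were spread over genes of several kinds. *Serpinb11*, a serpin of epithelia, measured 9.60, 1.22, 1.11 and 1.23 FPM at 12w+dox and 169, 103, 188, 176 and 125 in 12w-res (log2 fold change 5.82, standard error 0.44, adjusted p = 3.24e-07). Even beside the highest 12w+dox mouse, replicate 1, each rescued mouse had over 10 times as much, and at 6w+dox the gene stood at 1.24 to 2.50 FPM. Without that replicate its log2 fold change was 6.46. *Hapln4*, a link protein that fastens proteoglycans to hyaluronan around neurons, measured 5.13, 7.43, 4.04 and 2.12 against 56.5, 97.3, 120.0, 179.8 and 169 FPM (log2 fold change 4.59, standard error 0.36, adjusted p = 4.49e-07). *Gal*, the neuropeptide galanin, rose from 2.68 ± 1.52 to 45.7 ± 14.8 FPM (log2 fold change 3.95), and the peptide genes *Nmb*, for neuromedin B (3.64), and *Uts2*, for urotensin 2 (3.48), rose with it. *Ly6g6c* (3.999), the ganglioside sialyltransferase *St8sia5* (3.71), the stress-induced nuclear protein *Nupr1* (3.39) and the pore-forming gasdermin *Gsdma* (3.36) complete the 10 largest increases together with *Prl*. The 6w+dox mice were low as well for 3 of these genes, with *Gal* at 1.12 to 2.05 FPM, *Uts2* at 0.414 to 0.757 and *Hapln4* at 1.34 to 3.38.

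*Pomc* and the genes that process its product rose in part. *Pomc* took 19.2, 23.05, 17.1 and 12.9 percent of the reads in the 12w+dox mice and 40.2, 39.1, 41.0, 43.2 and 40.1 percent in the 12w-res mice, without overlap (means 18.1% ± 4.24 and 40.7% ± 1.56, exact two-sided permutation test, p = 0.0159). On the FPM scale its mean was 3.52-fold higher. The log2 fold change of 1.86 was not called by limma, whose standard error for this most abundant gene was 3.08 (adjusted p = 0.663), although the SDs between its mice were 0.45 and 0.12 on the log2 scale, while edgeR's quasi-likelihood test on the recovered reads gave an adjusted p of 0.00125. Of 22 melanotroph and prohormone genes, 5 rose and none fell (median 0.43). The convertases *Pcsk1* (78.2, 68.8, 61.4 and 43.2 against 214, 243, 215, 271 and 206 FPM, log2 fold change 1.89, standard error 0.16, adjusted p = 7.54e-07) and *Pcsk2* (1.37) rose, with the amidating enzyme *Pam* (1.65), the granin-like *Vgf* (188, 180.1, 94.4 and 92.2 against 586, 575, 526, 814 and 724 FPM, log2 fold change 2.27) and *Scg3* (1.05). The transcription factors that define melanotrophs were not called. *Pax7* measured 224 to 393 FPM at 12w+dox and 195 to 233 in 12w-res (log2 fold change -0.38 with an adjusted p of 0.0453), *Tbx19* had -0.14 with an adjusted p of 0.455 and the dopamine receptor *Drd2* -0.45 with an adjusted p of 0.0361, none of them past the minimum change. The 5 melanotroph markers *Pomc*, *Pcsk2*, *Pax7*, *Tbx19* and *Drd2* were present in every mouse of both groups.

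Genes that fold and check secreted proteins in the endoplasmic reticulum rose in 11 of 22 cases and all 22 were above 0 (median 0.98). *Hspa5*, the chaperone BiP, measured 1184, 1114, 985 and 885 FPM at 12w+dox and 1965, 1967, 2176, 2260.3 and 2078 in 12w-res (log2 fold change 1.01), and the disulfide isomerase *Pdia6* rose from 235 ± 48.4 to 655 ± 55.4 FPM (1.49), along with *Manf* (1.39), *Sdf2l1* (1.35) and *Trib3* (1.32). *Trib3* was highest in 12w-res replicate 1, at 99.4 FPM beside at most 34.3 in the other 4, and without that mouse its log2 fold change was 0.95, under the minimum. The 42 cytosolic ribosomal protein genes of the list were all above 0 (median 0.70), but only 5 passed the minimum change. *Rpl38* (1.20), *Rpl37* (1.17) and *Rpl12* (1.14) were at the top of the list. *Rpl29* was not a member, and its log2 fold change was -0.11 in females and 5.11 in males. Under totals of recovered reads, whose median gene stood at -0.61, this list still lay 0.65 above the median gene. Respiratory chain genes (2 of 38 rose, median 0.30), proteasome subunits (0 of 31, median 0.067) and glycolysis and hypoxia genes (0 of 24, median -0.15) were largely not called.

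The hormone genes of somatotrophs and lactotrophs rose. *Gh*, the growth hormone of somatotrophs, measured 7478, 930.3, 2042 and 2317 FPM at 12w+dox and 24746, 6381, 11630.0, 11098 and 11471 in 12w-res (log2 fold change 2.31, standard error 0.59, adjusted p = 0.00703), and *Prl*, the hormone of lactotrophs, 4940.4, 219, 214 and 332 and 5659, 9662, 8245, 10053 and 11697 FPM (log2 fold change 4.06, standard error 0.71, adjusted p = 0.00061). 12w+dox replicate 1 was the highest of its group for both, and it overlapped the rescued mice for *Gh*. Without it the log2 fold changes were 2.85 for *Gh* and 5.14 for *Prl*. Both hormones had stood high at 6w+dox (45882 to 80113 and 9172 to 11704 FPM). Of the 13 genes of these cell types 2 rose, and the summed level of the list was 1223 to 13122 FPM at 12w+dox, 17381 to 35045 in 12w-res and 58728 to 94254 at 6w+dox. *Tshb* of thyrotrophs stood at 1.10 with an adjusted p of 0.148, and the gonadotroph genes *Lhb* and *Fshb* at 0.82 with an adjusted p of 0.504 and -0.036 with an adjusted p of 0.985, with males high and females low in both groups. Leaving out single mice moved *Lhb* between -0.14 and 1.49 and *Fshb* between -1.003 and 0.81. In bulk tissue, more or fewer cells of a type and more or less RNA per cell cannot be told apart. The neurohypophyseal hormone genes *Avp* and *Oxt* were near 0 in both groups (at most 3.11 and 1.27 FPM) where the 6w+dox mice had up to 83.1 and 19.8. In the neural lobe list 1 of 10 genes rose, and that was the intermediate filament *Vim* (1.66), which connective tissue also expresses. Stem and folliculostellate genes rose in 4 of 9 cases, with *Sox9* at 1.14 and *Krt18* at 1.40, whereas *Sox2*, the defining stem cell factor, stood at -0.38 with an adjusted p of 0.137.

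Vessel wall and connective tissue genes rose together. All 12 pericyte and smooth muscle genes rose, and in all 12 the groups did not overlap (median 1.498). *Pdgfrb*, the receptor that marks pericytes, measured 25.4, 15.1, 10.2 and 23.5 FPM at 12w+dox and 47.8, 49.5, 57.6, 57.6 and 61.0 in 12w-res (log2 fold change 1.62, standard error 0.21, adjusted p = 5.67e-05), and *Cspg4* (NG2) rose most (2.12), followed by the smooth muscle actin *Acta2* (1.79). Of 18 endothelial genes, 12 rose and all 18 were above 0 (median 1.16), with *Cdh5*, the cadherin of endothelial junctions, at 17.4, 8.07, 7.95 and 20.2 against 33.4, 37.6, 38.2, 45.3 and 33.0 FPM (log2 fold change 1.56) and *Kdr*, the VEGF receptor, just under the minimum change (0.99 with an adjusted p of 0.0101) and past it without 12w+dox replicate 1 (1.16). Of 22 fibroblast and matrix genes, 20 rose (median 1.68). *Col1a1*, the main chain of type I collagen, measured 60.5, 29.8, 14.1 and 86.0 FPM at 12w+dox and 196, 138, 263, 289 and 414 in 12w-res (log2 fold change 2.64, standard error 0.43, adjusted p = 0.000318). Each rescued mouse was above each 12w+dox mouse, and the spread within 12w+dox was wide. *Col6a3* (2.28), *Col5a1* (2.16) and fibronectin, *Fn1* (2.16), rose as well, and *Fn1* had been 5.18 to 6.73 FPM at 6w+dox. The *Col1a1* locus also carries the transgene in the sh*Rb* mice of both groups. Basement membrane genes rose in 9 of 16 cases, with *Col15a1* (2.10), *Lamb1* (2.07) and *Col4a1* (2.05) leading, and the integrin *Itga3* at 0.98 (adjusted p = 4.1e-05) without overlap but under the minimum, which it passed without 12w+dox replicate 1 (1.02). The summed level of the pericyte list was 153 to 357 FPM at 12w+dox, 612 to 732 in 12w-res and 206 to 262 at 6w+dox. For the fibroblast list these sums were 344 to 825, 1270.0 to 2491 and 807 to 854 FPM, and for the endothelial list 118 to 216, 337 to 434 and 289 to 359.

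**Figure D5:**
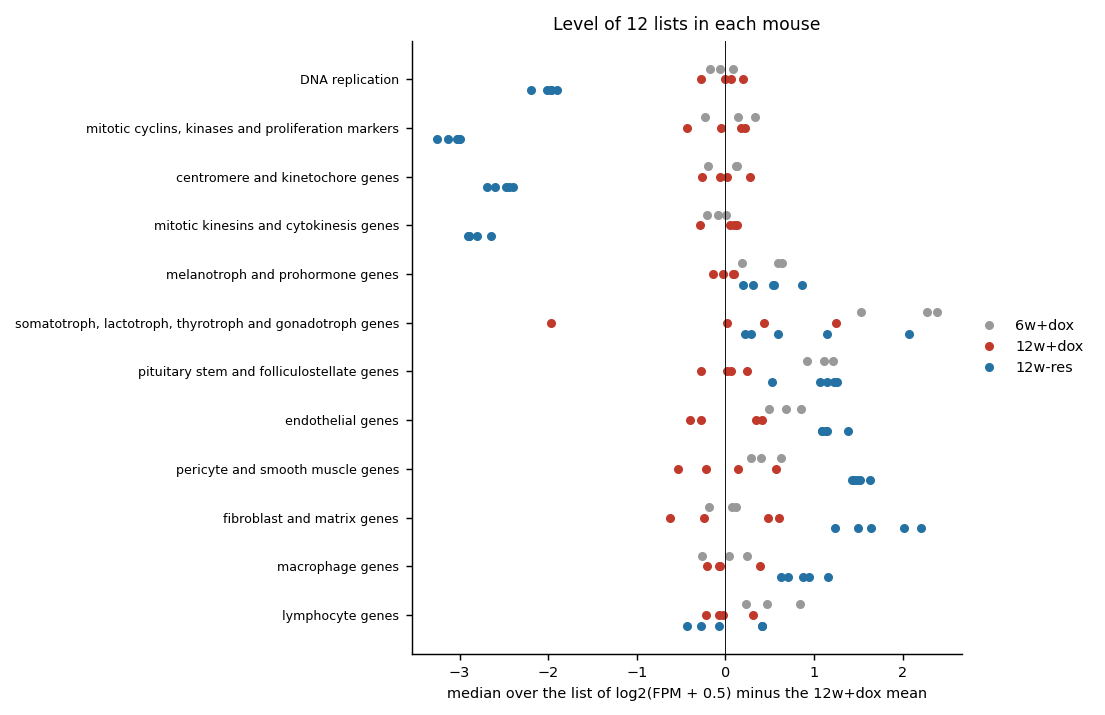
Level of 8 cell type and 4 cell cycle lists in each mouse, as the median over the list's genes of log2(FPM + 0.5) minus the gene's mean at 12w+dox; each point is a mouse and colours mark the 3 groups. The 5 rescued mice stand clear of 12w+dox, below in the cell cycle lists and above in the pericyte, endothelial and fibroblast lists. They overlap it in the lymphocyte list and in the list of somatotroph, lactotroph, thyrotroph and gonadotroph genes.

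Of 18 macrophage genes, 6 rose and 1 fell (median 0.90). *Lyz2*, lysozyme, rose most (75.9, 55.0, 51.3 and 55.1 against 169, 104, 288, 202 and 176 FPM, log2 fold change 1.60, standard error 0.22, adjusted p = 9.04e-05), and the summed level of the list was 216 to 308 FPM at 12w+dox, 377 to 714 in 12w-res and 168 to 239 at 6w+dox. The defining markers *Csf1r* (0.91 with an adjusted p of 0.00518), *C1qa* (0.70 with an adjusted p of 0.00215) and *Adgre1* (0.60 with an adjusted p of 0.047) were present in every mouse and under the minimum change. Without 12w+dox replicate 1, *Csf1r* was called (1.13, adjusted p = 0.000619). *Cd163*, a scavenger receptor of resident macrophages, fell (6.00, 9.06, 8.13 and 9.02 against 3.12, 2.69, 3.14, 1.95 and 3.43 FPM, log2 fold change -1.35). Lymphocyte genes were at low levels, with *Cd8a* at no more than 0.581 FPM in any of the 9 mice, and 1 of 7 rose, the cytokine receptor chain *Il2rg* (1.04). Of 3 red blood cell genes 1 fell, the anion exchanger *Slc4a1* (-1.88), which was at 0 FPM in 12w-res replicate 4. The 1 member with reads in that mouse stood at 0.21 with an adjusted p of 0.651. The haemoglobin genes of the list were not among the genes tested. Of 40 interferon response genes, 10 fell and none rose (median -0.70, 34 below 0). *Irf7*, the factor that amplifies interferon induction, measured 12.6, 19.3, 20.2 and 16.00 FPM at 12w+dox and 3.59, 5.28, 5.10, 2.01 and 2.38 in 12w-res (log2 fold change -2.13, standard error 0.27, adjusted p = 4.06e-05), and *Ifit2* 17.5, 15.9, 20.2 and 18.2 and 4.68, 4.39, 3.23, 4.07 and 2.98 (log2 fold change -2.09, standard error 0.17, adjusted p = 5.7e-07). *Ifit3* (-1.41), *Oas1a* (-1.18) and *Isg15* (-1.16) fell too. MHC class I genes were not called (0 of 12, median -0.27), nor were those of class II (0 of 7, median 0.72). All 7 class II genes were above 0, and 6 of them had an adjusted p under 0.05 with a change under the minimum. Their median was 0.28 in females and 1.21 in males. In class I, 2 genes were higher and 5 lower at that adjusted p. Chemokine and inflammatory genes rose in 7 of 22 cases and none fell, led by lipocalin 2, *Lcn2* (283, 60.7, 58.8 and 78.8 against 710.5, 219, 639.5, 436 and 341 FPM, log2 fold change 2.18), and the complement protein *C3* (2.09), both of which overlapped through 12w+dox replicate 1. Without that mouse they stood at 2.71 and 2.56.

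Of 18 Notch pathway genes 6 rose and none fell (median 0.44): the receptors *Notch1* (8.06, 4.61, 4.62 and 9.13 against 12.2, 17.1, 14.2, 18.5 and 16.3 FPM, log2 fold change 1.23, standard error 0.23, adjusted p = 0.00106), *Notch3* (1.28) and *Notch4* (1.45), the ligand *Jag1* (1.52) and the targets *Hes1* (5.34, 3.29, 2.59 and 4.80 against 12.6, 7.82, 9.92, 9.39 and 8.34 FPM, log2 fold change 1.19) and *Heyl* (1.26). Of these, *Notch3* is also in the pericyte list. In the TGF-beta and BMP list 7 of 28 rose and none fell. The 7 held ligand and receptor genes of the pathway, while no *Smad* or *Id* gene of the list was called. The largest increase of the list was that of *Cav1*, the coat protein of caveolae and not a ligand, receptor or SMAD (8.93, 5.95, 5.24 and 6.76 against 18.9, 36.2, 31.5, 42.9 and 31.8 FPM, log2 fold change 2.16, standard error 0.21, adjusted p = 3.67e-06). Axon guidance genes rose in 7 of 35 cases, with the netrin receptor *Unc5b* first (7.89, 7.96, 5.39 and 8.18 against 78.0, 54.3, 47.1, 45.5 and 62.6 FPM, log2 fold change 2.87, standard error 0.18, adjusted p = 5.56e-08). Receptor tyrosine kinases rose in 8 of 22 and fell in 2, the latter being *Insrr* and *Fgfr2* (-1.56). Among voltage-gated channels 2 of 34 rose and 1 fell, and among imprinted genes 2 of 15 rose, *H19* (1.48) and *Grb10* (1.14). In both lists the share called was near the 11.3% of all genes. Of 16 immediate-early genes only *Egr3* was called (17.3, 13.7, 8.87 and 8.82 against 2.55, 1.06, 1.09, 1.89 and 3.65 FPM, log2 fold change -2.36, standard error 0.30, adjusted p = 4.48e-05). *Egr1* ran from 374 to 461 FPM in the 12w+dox females and from 22.1 to 32.2 in the males of that group, beside 25.9 to 86.6 in 12w-res, and its log2 fold change was -1.43 with an adjusted p of 0.19. That value rested on single mice, at -0.72 without 12w+dox replicate 1, -0.82 without replicate 2 and -2.17 without replicate 4.

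Both sexes were in each group, so the response could be compared between them. In females 954 of the 955 genes called higher and 772 of the 772 called lower changed in the same direction, and in males 953 and 771. Because these genes were called from mice of both sexes, these counts describe the calls and do not test them. The list medians were -1.95 in females and -2.13 in males for replication, -3.02 and -3.20 for mitotic genes, 1.35 and 1.65 for pericyte genes and -0.76 and -0.58 for the interferon response, while that of the immediate-early genes was -1.04 in females and 0.58 in males. A test of the difference itself (limma interaction of group and sex over all 12 mice) found 5 genes of 15315 at an adjusted p under 0.05, beside 419 at an unadjusted p under 0.05. None of the 5 belongs to the lists above.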

How the data were processed

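Pituitary RNA was sequenced as paired-end reads of PolyA-enriched libraries on a NovaSeq6000. According to the study's methods, reads were mapped with STAR at default settings to mm10 and assigned to RefSeq genes, genes with at least 10 reads in over 50% of the samples of a condition were kept, and the authors deposited a signal in FPM (mapped fragments relative to sequencing depth) that had been scaled by DESeq2 size factors. The counting tool and its use of strand were not given in the sources used here, so overlapping, antisense and near-identical genes are uncertain. The submitters' processing notes name DESeq2 and mm10. The deposited table held 15315 named genes for 12 mice and 2 unnamed lines, not used here. All of its 183780 values (100%) were whole multiples of 1 read to within 0.1 read, and the recovered reads gave the depth of each mouse. The other 13 libraries of the series, prepared by rRNA depletion, were not used.

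The 12 mice (6w+dox, 12w+dox and 12w-res) were fitted together on log2(FPM + 0.5) with limma 3.58.1 in R 4.3.3 with a trended prior variance, and the contrast was 12w-res minus 12w+dox with Benjamini-Hochberg adjustment over all 15315 genes. Fold changes on this scale understate changes of low genes. Single values were compared by exact two-sided permutation tests (scipy 1.17.1). The fit was tested on simulated data with known changes. Alternatives included edgeR 4.0.16 and DESeq2 1.42.0 on the recovered reads, other scalings, pseudocounts, filters and covariates, each sex alone and leaving out each mouse. Each mouse is labelled as a separate sample, and no pair of replicates agreed within sampling noise. In count data the read total limits precision through counting error. Taken over all genes together, that error was small beside the spread between mice at these depths. For genes with few reads it need not be small.

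The comparison and the 40 gene lists were chosen with earlier results of these data known. Genes were named by rule: *Rb1*, *Pomc*, genes the study names, *Mki67*, the 10 largest changes in each direction without overlap, the first 3 members of each list, and called members by size. *Adgre1*, *C1qa*, *Ccne1*, *Cd8a*, *Cdc25b*, *Dnmt1*, *E2f4*, *Egr1*, *Isg15*, *Lin9* and *Mybl2* were named after their values were seen or as markers. Some genes are not reported here.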

Additional observations from a re-analysis of the deposited data

Results flagged for a closer look

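Among 143 genes described above, each group of 4 or 5 mice was checked for a mouse whose gap to its nearest neighbour took up most of the range of the group (Dixon's test at its 95% limit). Of 286 groups 21 passed, where chance alone flags about 1 in 20, and 6 of them were 12w+dox replicate 1 and 9 were 12w-res replicate 1.

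12w+dox replicate 1 was high for *Prl* (4940.4 FPM beside 214 to 332), *Serpinb11* (9.60 beside 1.11 to 1.23), *Lcn2* (283 beside 58.8 to 78.8) and *Lyz2* (75.9 beside 51.3 to 55.1). It was low for *Otoa* (4.92 beside 15.8 to 17.5) and *Kif14* (9.53 beside 12.4 to 12.8). In the same group replicate 4 was low for *Manf* (105 beside 152 to 157) and high for *Pole* (23.9 beside 15.9 to 16.6), and replicate 3 was low for *Unc5b* (5.39 beside 7.89 to 8.18).

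12w-res replicate 1 was high for *Gdf15* (19.6 FPM beside 4.97 to 8.15), *Sesn2* (65.9 beside 25.3 to 36.6), *Trib3* (99.4 beside 20.02 to 34.3), *Ccnd2* (57.8 beside 24.0 to 28.5), *Egr1* (86.6 beside 25.9 to 39.4), *Gh* (24746 beside 6381 to 11630.0), *Lhb* (1039.6 beside 64.4 to 327) and *Avp* (2.60 beside 0.845 to 1.24), and low for *Rbl2* (30.2 beside 36.6 to 38.2). In that group replicate 2 was low for *Bub1b* (0.687 beside 1.05 to 1.18) and *Oxt* (0.106 beside 0.945 to 1.27) and high for *Insrr* (2.01 beside 0.708 to 0.988).

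The interaction test of group and sex passed 5 genes. The female minus male difference in log2 fold change was 3.62 for *Tmem221*, 3.00 for *1700007B14Rik*, 2.86 for *Lynx1* and 2.96 for *Kctd12b*, and -5.22 for *Rpl29*, with adjusted p from limma of 0.00751 to 0.0186. *Tmem221*, *1700007B14Rik*, *Lynx1* and *Kctd12b* were lower in the 2 females of 12w+dox and the 2 males of 12w-res than in the other 5 mice of these groups. With so few mice of each sex in a group, an effect of sex on the response cannot be told apart from another difference between these mice. The cause of the split was not tested. *Rpl29* was low in the 2 males of 12w+dox alone, and its reads can be split with those of near-identical copies. No called gene was left without 12w+dox replicate 3 or without 12w-res replicate 2.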

How the results depend on the processing

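The counts of 955 genes called higher and 772 called lower stayed within 1.5 times those values except under totals of recovered reads (243 higher and 3364 lower, against a median gene at -0.605) and at an adjusted p alone (2975 and 2807). Totals without *Pomc*, chosen after seeing the data, gave 655 and 1130 with a median gene at -0.179. Leaving out each mouse gave 830 to 1216 higher and 710 to 874 lower. *Rb1* (log2 fold change 2.35) was called under each alternative, from 1.74 under totals of recovered reads to 2.51 by edgeR. *Pomc*, not called by limma (log2 fold change 1.86), was called by edgeR (1.82, adjusted p = 0.00125), by DESeq2 (1.815, adjusted p = 1.22e-09) and by limma under totals (1.20, adjusted p = 0.0144), and leaving out mice gave 1.68 to 2.03. Of the 40 lists 21 had a median above that of all genes, and 19 to 23 did under the alternatives. List medians moved by more than the spread between mice in 43 of 560 comparisons other than leaving out a mouse, and 1 changed sign, that of red blood cell genes with at least 10 reads in every mouse (0.21), where fewer genes were tested. Over 141 other genes, 68 comparisons lost a call and 23 gained one out of 1957, and leaving out a mouse lost 18 and gained 14 of 1269. Calls lost without 1 mouse were those of *Bcl2l11* (-0.87 without 12w+dox replicate 4, -0.98 and -0.99 without 12w-res replicates 2 and 4), *Ccng1* (0.99, 12w-res replicate 4), *Ddb2* (-1.20, 12w+dox replicate 3, and -1.26, 12w-res replicate 1), *Gdf15* (1.11, 12w+dox replicate 4), *Grb10* (0.995), *Notch3* (0.93) and *Scg3* (0.96, all 12w+dox replicate 3), *Hspa5* (0.93 to 0.995, 12w+dox replicates 3 and 4, 12w-res replicates 3 and 4), *Il2rg* (0.95 to 0.99, 12w+dox replicates 2 and 3, 12w-res replicate 2) and *Trib3* (0.95, 12w-res replicate 1). Calls gained were those of *Ccnd1* (1.002 to 1.15, 12w+dox replicates 1 and 4, 12w-res replicates 3, 4 and 5), *Kdr* (1.05 to 1.16, 12w+dox replicates 1 and 4, 12w-res replicates 3 and 4), *Itga3* (1.003 to 1.03, 12w+dox replicates 1 and 2, 12w-res replicate 1), and, without 12w+dox replicate 1, *Csf1r* (1.14) and *Cdc25b* (-1.06). The number of genes that passed the interaction test of group and sex was 5, and it was 13 with only the 9 mice compared, 23 with DESeq2 and 0 to 9 when a mouse was left out. Equal replicate numbers did not pair the mice, since correlations of their deviations ran from -0.127 to 0.039 and 0 mice correlated best with their own number. With the replicate block 928 genes were called higher and 791 lower. The cause of these shifts was not tested.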
